A study of Rattus norvegicus with 28 samples.

Results

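A set of 10 genes that are read as signs of axon growth, or of the brakes on it, were followed in the contused rat spinal cord: Gap43, Atf3, Sprr1a, Jun, Nrn1, Basp1, Stmn2, Rtn4, Rtn4r and Lingo1. Members were taken by their gene name on the array, and 9 of the 10 were found, each by a single probe, among 35469 features named on the array. Sprr1a was absent under that name. The list was selected on general knowledge of these genes at a time when results of these same arrays were already known. Nrn1 had been seen among the genes with the largest falls at 1 and 4 weeks. Its values against T0 are therefore given as a description with no test. It is left out of the counts against T0, except in the closing section on processing. The counts against T0 are no independent evidence for the other members.

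RNA came from a 1.5 cm piece of thoracic spinal cord of adult female Sprague Dawley rats and was read on one-colour arrays, which give a fluorescence intensity per probe. T0 was cord without contusion, which the labels call sham. T1, T2, T4 and T8 were taken 1, 2, 4 and 8 weeks after a 250 kdyn contusion of the mid-thoracic cord, with the epicentre in the piece. T1_NPC and T2_NPC carried the same injury and a graft of neural progenitor cells, cultured from the injured cords of other adult rats, placed right after the contusion or 1 week later, and both were taken 1 week after grafting. There were 4 samples in each of the 7 groups. Injured controls received cell-free medium by the methods. The methods list tacrolimus, an immunosuppressant, in the post-surgery care of all animals, at 1 mg/kg from the day before grafting. They do not say when, or if, injured rats without a graft began it. Host and graft RNA cannot be told apart.

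Axons of the adult mammalian cord regrow poorly. Myelin proteins such as Nogo-A, made from Rtn4, bind a receptor on the axon that is built from the Nogo receptor, made from Rtn4r, and partners such as Lingo1, and this receptor stops the growth cone. Neurons that do regrow, as in injured peripheral nerve, switch on transcription factors such as Atf3 and Jun, and with them growth cone and cytoskeletal proteins such as Gap43, Basp1 and Stmn2 and the small proline-rich protein Sprr1a. Nrn1, or neuritin, is an activity-induced surface protein of neurons that promotes neurite growth. Jun and Atf3 bind DNA as AP-1 and related dimers, and Sprr1a is known to rise with Atf3 in injured sensory neurons.

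Of the 10 listed genes, 4 had a promoter entry in the RefSeq table of build GRCr8: Sprr1a, Basp1, Rtn4r and Lingo1. The 250 bases before each gene start were searched on both strands for the AP-1 motif TGANTCA and for the CRE motif TGACGTCA; these letters do not overlap in a match. Sprr1a and Rtn4r are shown because they are the effector gene of the Atf3 programme and the receptor of the myelin ligand. The capitals mark AP-1 matches.
Sprr1a, chr2:180752626-180752875, minus strand: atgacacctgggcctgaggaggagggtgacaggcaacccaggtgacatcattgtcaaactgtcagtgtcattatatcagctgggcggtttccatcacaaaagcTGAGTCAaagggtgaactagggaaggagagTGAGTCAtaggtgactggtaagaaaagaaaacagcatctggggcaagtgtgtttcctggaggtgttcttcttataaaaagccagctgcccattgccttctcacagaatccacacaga
Rtn4r, chr11:96373555-96373804, minus strand: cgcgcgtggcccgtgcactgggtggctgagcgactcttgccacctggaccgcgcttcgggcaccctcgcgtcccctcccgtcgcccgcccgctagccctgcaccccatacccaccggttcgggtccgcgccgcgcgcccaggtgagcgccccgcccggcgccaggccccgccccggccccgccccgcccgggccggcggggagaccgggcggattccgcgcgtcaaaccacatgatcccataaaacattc
The Sprr1a window held 2 AP-1 matches, starting 147 and 117 bases before the gene start, and no CRE match. The windows of Rtn4r, Lingo1 and Basp1 held no match to either motif. Among all 33469 promoter windows of this length, 6.34% held the AP-1 letters and 1.59% the CRE letters. The windows also differed in base composition: 48.4% of the Sprr1a bases were G or C with 1 CpG, against 76.4% with 37 CpG in Rtn4r, 78.0% with 34 in Lingo1 and 76.8% with 30 in Basp1.

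The values below are log2 intensities of the normalised table that the authors deposited, and each is read only against the same probe in other samples. All 9 probes were flagged well above background on all 28 arrays. Gap43 and Jun were spotted 10 times per array, and the copies of each differed within an array by a median SD of 0.08 on the log2 scale. By the array's annotation on build rn4, 7 of the 9 probes lay in 1 stretch of the genome, for example chr13:107191691-107191749 for Atf3 and chr11:84839082-84839141 for Rtn4r, both on the minus strand. The Basp1 probe spanned chr2:76878396-76927536 with a gap, and Nrn1 was not placed.

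The sample labels are open to a doubt that touches every value. Each column of the deposited table matched the rank order of 1 scanner output, with Spearman rho of 1 against at most 0.993 for the next best output. For 12 samples this output was the sample's own, and for 16 it was deposited under another sample. The labels of the table were kept here. With the scanner outputs under the labels they were deposited with, no member passed the test in any comparison. The 12 undisputed samples hold 2 of T0, T2 and T8, 1 of T1 and of T4, and all 4 of T2_NPC, so that T1 and T4 have a single sample whose spread is assumed to be that of the other groups. In them Atf3, Jun and Rtn4 passed against T0 at every time, Rtn4r at T1 and T2 and Stmn2 at T8, and Gap43, Basp1 and Lingo1 did not pass. The time-course samples among them are the same arrays as those of scan session 1, so values within that session are no separate check. Calls on these arrays still depended on the fit. Within the session alone Stmn2 at T1, T2 and T4, Lingo1 at T1 and T2 and Gap43 at T8 also passed. Rtn4 at T1, T2 and T4 did not pass there. The arrays lay on 7 slides in 3 scan sessions, and T1_NPC and T2_NPC each filled a slide of their own in a session without any other group, so slide and transplantation cannot be told apart.

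Most members differed between T0 and the injured cord (plot of levels by sample). Apart from Nrn1, 6 of the 8 other members passed the test against T0 in T1, in T2 and in T4, and 5 did in T8 (limma, Benjamini-Hochberg adjusted over all 35469 features). For T1 the same test called 44.1% of all features, for T2 40.0%, for T4 38.5% and for T8 39.7%. Ranges without overlap with T0 were also common, at 41.1% of all features for T1, 37% for T2, 37.5% for T4 and 38.6% for T8. At each time Atf3 and Jun were higher, and 4 of the 8 were lower in T1, T2 and T4 and 3 in T8. Over the 4 times in order, the median log2 change of all 9 members, Nrn1 included, was -0.75, -0.70, -0.48 and -0.46, beside -0.10, -0.05, -0.06 and -0.04 over all features. Nrn1, chosen on its fall, lowers the median of the members at each time. These medians are a description and do not set the members apart from all features. All 4 comparisons share the T0 samples.

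**Figure D1:**
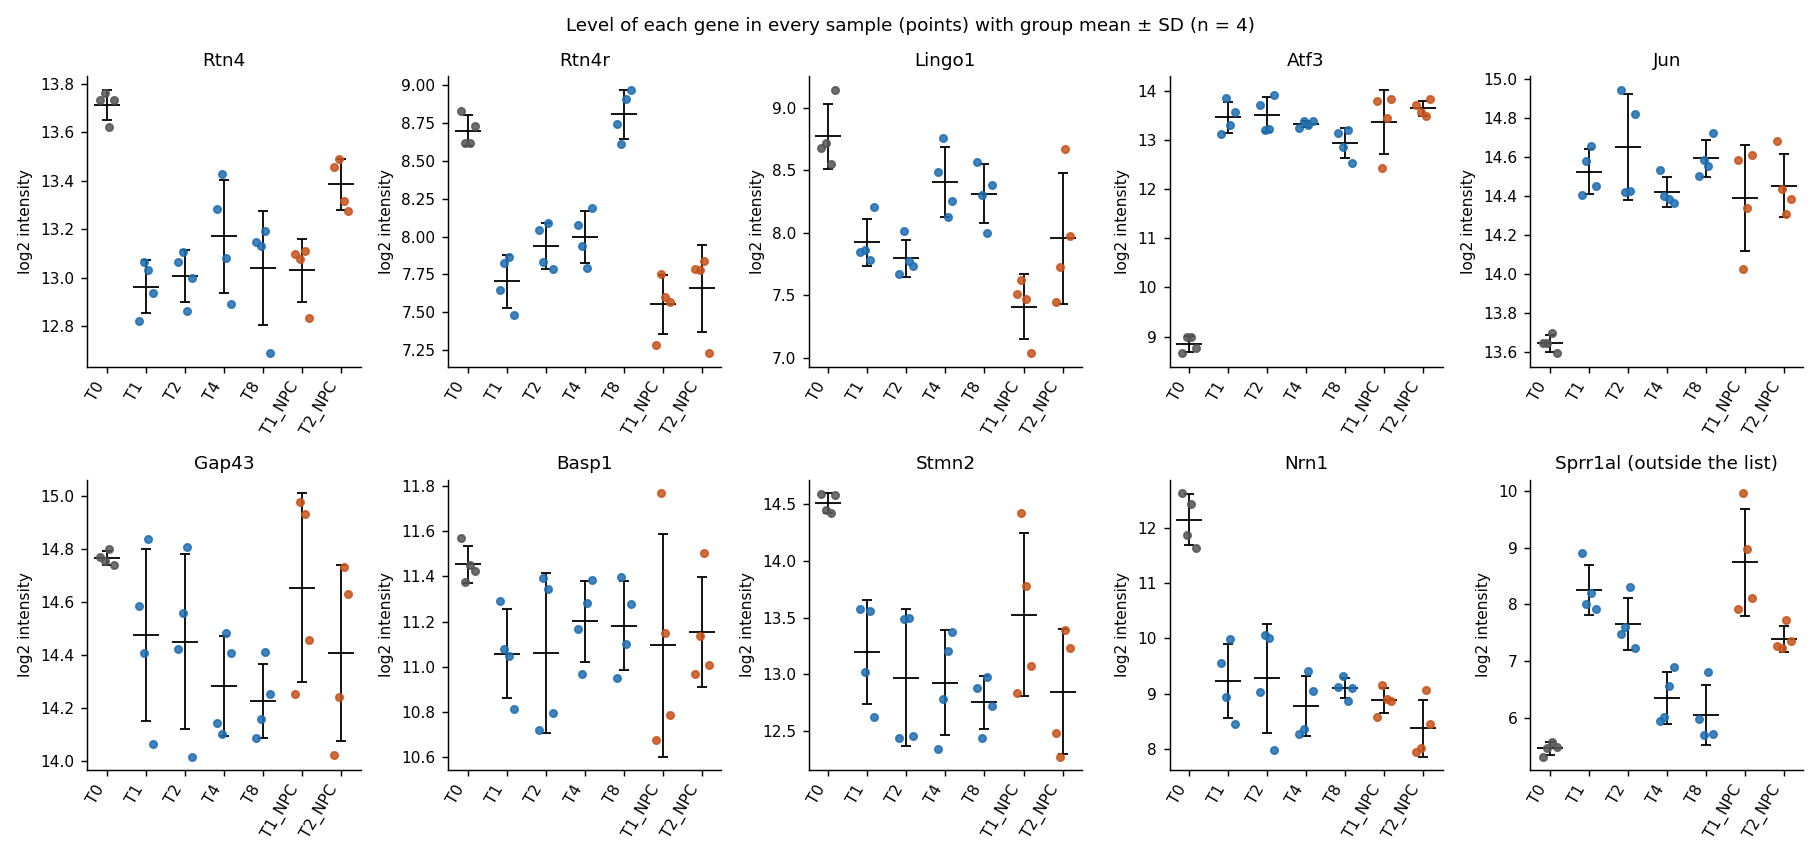
Log2 intensity of each gene in every sample (points; grey T0, blue injured, orange injured with graft) with the group mean and SD over 4 samples; each panel has its own vertical axis, which does not start at 0. Atf3 lies at 8.66 to 9.00 in T0 and at 12.43 or above in every injured sample, Rtn4r is back at 8.61 to 8.96 in T8, and Sprr1al is shown beside the listed genes.

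The bulk tissue changed its cell makeup at the same time, and in such samples fewer cells of a type and less RNA per cell cannot be told apart. The summed intensity of 8 neuronal markers lay at 18.24 to 18.60 on the log2 scale in T0 and at 16.34 to 17.55 in the 24 injured samples, and all 8 passed the test as lower than T0 at every time. The summed intensity of 7 microglia and macrophage markers lay at 15.15 to 15.41 in T0 and at 17.36 to 18.35 in the injured samples, with 7 of 7 higher at T1, T4 and T8 and 6 at T2. Of these 2 lists, the macrophage marker Cd163 alone was below background in every sample of a group, T0. The part of these shifts in the members' values was not tested.

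**Figure D2:**
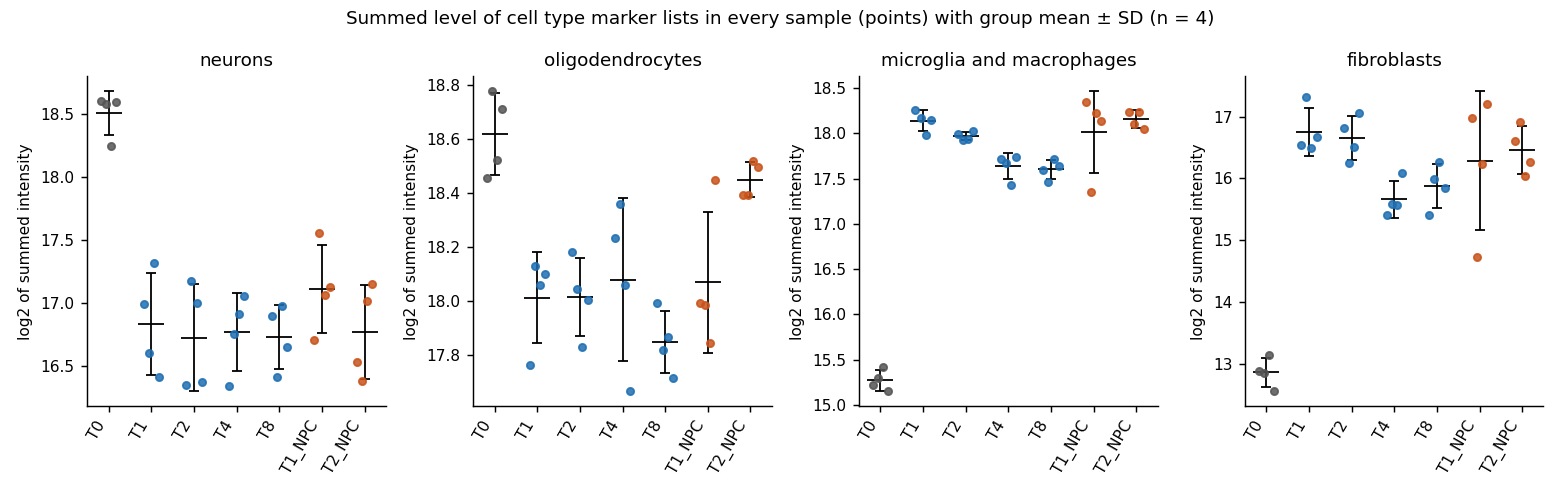
Log2 of the summed intensity of 4 cell type marker lists in every sample (points), with the group mean and SD over 4 samples; axes do not start at 0. The neuronal sum of every injured sample, at most 17.55, lies below the T0 range of 18.24 to 18.60, while the macrophage and fibroblast sums lie above theirs.

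The gene of the myelin ligand fell and stayed low. Rtn4, which makes Nogo-A of oligodendrocytes and neurons, was 13.73, 13.76, 13.62 and 13.73 in the T0 samples. In T1 it was 12.82, 13.06, 13.03 and 12.94, in T2 13.07, 13.11, 12.86 and 13.00, in T4 13.28, 13.43, 13.08 and 12.89, and in T8 13.15, 13.13, 13.19 and 12.69. No injured sample reached the T0 range. The fall was 1.68-fold at T1 (log2 change -0.75, SE 0.12, adjusted p = 1.54e-05), 1.63-fold at T2, 1.46-fold at T4 (adjusted p = 0.000743) and 1.59-fold at T8. Within scan session 1, which held 2 samples of T0 and T2 and 1 of T1 and of T4, the changes were -0.86 at T1, -0.69 at T2 and -0.78 at T4 and did not pass (adjusted p = 0.0606, 0.0588 and 0.0819). The summed level of 7 oligodendrocyte markers also lay below its T0 range of 18.46 to 18.78 in every time-course sample, at 17.67 to 18.36, and 4 or 5 of the 7 passed as lower at each time. Its part in the Rtn4 values was not tested.

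**Figure D3:**
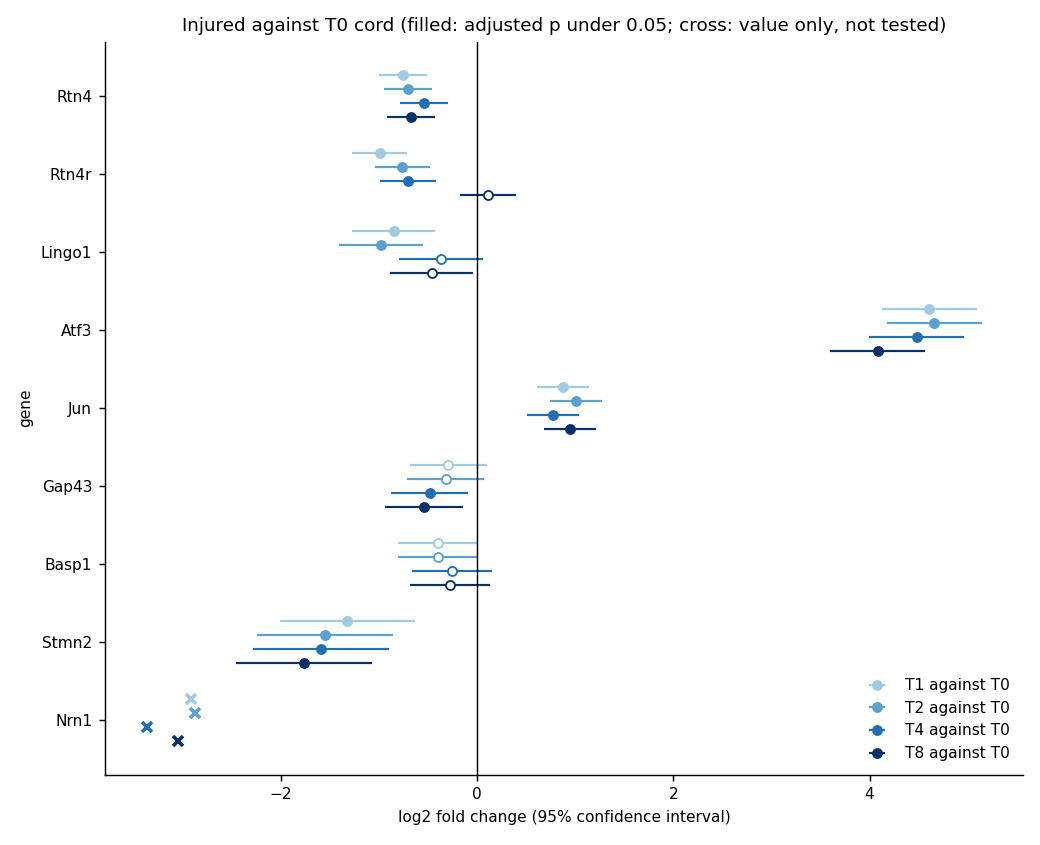
Log2 fold change of each found member against T0 at 1, 2, 4 and 8 weeks after contusion (points, light to dark) with 95% confidence intervals from the limma fit; filled points have an adjusted p under 0.05, and crosses mark Nrn1, shown without a test. Atf3 stands at 4.08 to 4.66 and Nrn1 at -3.37 to -2.87, while Rtn4r lies at -0.99, -0.76 and -0.70 and then at 0.11.

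The receptor gene Rtn4r fell early and overlapped T0 again at 8 weeks. Its T0 values were 8.83, 8.62, 8.62 and 8.73. They were 7.65, 7.82, 7.87 and 7.48 in T1, 8.05, 7.83, 8.09 and 7.79 in T2, and 8.07, 7.94, 7.79 and 8.19 in T4. The 4 samples of T8 read 8.74, 8.61, 8.91 and 8.96, overlapping T0 and lying above every T1, T2 and T4 sample. Against T0 the fall was 1.99-fold at T1 (log2 change -0.99, SE 0.14, adjusted p = 2.79e-06), 1.69-fold at T2 and 1.62-fold at T4 (adjusted p = 0.000250), and at T8 the change was 0.11 with a 95% interval of -0.17 to 0.39.

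The recovery of Rtn4r between 4 and 8 weeks was itself tested. T8 was 1.75-fold higher than T4 (log2 change 0.81, SE 0.14, adjusted p = 0.0163), and Rtn4r was the member that passed in this comparison (limma), in which 0.0902% of all features did. The change was 0.60 within scan session 1, which holds a single T4 sample, and 0.89 within session 2, and neither passed (adjusted p = 0.717 and 0.162). It also did not pass when T4 replicate 2, T4 replicate 3, T8 replicate 3 or T8 replicate 4 was left out. In those fits the change was 0.74 to 0.79 (adjusted p from 0.0793 to 0.136). Such fits cannot test its direction, since every T8 sample lay above every T4 sample.

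Lingo1, the co-receptor, fell at 1 and 2 weeks. It was 8.68, 8.71, 8.55 and 9.14 in T0, 7.84, 7.86, 7.78 and 8.20 in T1, and 7.67, 8.01, 7.77 and 7.73 in T2, with no overlap between T0 and either. The fall was 1.80-fold at T1 (log2 change -0.85, SE 0.21, adjusted p = 0.00150) and 1.97-fold at T2 (-0.98, adjusted p = 0.000438). In T4 it read 8.49, 8.76, 8.12 and 8.25 and in T8 8.56, 8.30, 8.00 and 8.38, which overlapped T0 by 1 sample at each time. The changes of -0.37 at T4 and -0.46 at T8 did not pass (adjusted p = 0.172 and 0.0801), although the T8 change passed with scan session as a block (adjusted p = 0.0255). T4 lay above every T2 sample by 0.61 on average (95% interval 0.19 to 1.03), which did not pass over all features (adjusted p = 0.334, 0.0761% called).

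Other genes of the growth-inhibitor pathway went both ways. Over all features, 19.1% were called higher and 25.1% lower in T1, 17.7% and 22.2% in T2, 17.5% and 21.0% in T4, and 18.2% and 21.5% in T8, and the counts of this and the other pathway lists stand beside these shares. Of 19 measured, 6 were higher and 7 lower in T1, 5 and 7 in T2, 7 and 5 in T4, and 6 and 8 in T8, with a median log2 change of -0.04 at T1. Ngfr, the p75 neurotrophin receptor that partners the Nogo receptor, was 4.16-fold higher at T1 (log2 change 2.06, SE 0.22), and S1pr2, a sphingosine phosphate receptor that also binds Nogo-A, was 2.48-fold higher. The myelin ligand Omg was 2.86-fold lower at T1, and Rtn2, another reticulon, was 2.89-fold lower. The other myelin ligand of the receptor, Mag, was lower by -0.62 (adjusted p = 0.0123). The genes of all 3 myelin ligands, Rtn4, Omg and Mag, were lower at T1; Mag was picked out after its value was seen.

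Among the transcription factors, Atf3 showed the largest change of the 9 members in absolute size. This stress-induced factor of injured neurons, which macrophages also express, read 8.66, 8.98, 9.00 and 8.77 in T0. In T1 it was 13.12, 13.85, 13.31 and 13.56, in T2 13.71, 13.20, 13.22 and 13.91, in T4 13.25, 13.38, 13.31 and 13.38, and in T8 13.13, 12.86, 13.20 and 12.53. The lowest injured sample stood more than 3 log2 units above the highest T0 sample. The rise was 24.4-fold at T1 (log2 change 4.61, SE 0.23, adjusted p = 2.23e-13), 25.3-fold at T2, 22.3-fold at T4 and 16.9-fold at T8. Every T8 sample lay below every T4 sample, but this step of -0.40 did not pass (95% interval -0.88 to 0.09). The features whose values most resembled Atf3 over the 28 samples were Arl11, Fermt3 and Slamf9 (Pearson r of 0.99 each, a description set largely by the gap between T0 and all other samples); Fermt3 encodes the integrin activator of blood cells.

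Jun, the AP-1 subunit needed for axonal regrowth of peripheral neurons, rose far less. It was 13.65, 13.65, 13.70 and 13.59 in T0 and 14.41, 14.58, 14.66 and 14.45 in T1. In T2 it was 14.95, 14.42, 14.42 and 14.82, in T4 14.54, 14.40, 14.39 and 14.37, and in T8 14.51, 14.59, 14.56 and 14.73. T0 and the injured groups did not overlap, and the injured groups overlapped each other. The rise was 1.84-fold at T1 (log2 change 0.88, SE 0.13, adjusted p = 5.39e-06), 2.01-fold at T2, 1.72-fold at T4 and 1.93-fold at T8. Its nearest patterns were those of Copz2, Nfkb1 and Gsdmd (Pearson r 0.95 to 0.94).

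Of 25 other transcription factors linked to regeneration or to the AP-1 and stress programme, 14 were higher and 4 lower in T1, 12 and 2 in T2, 10 and 2 in T4, and 11 and 2 in T8. Their median log2 change at T1 was 0.63, beside -0.10 over all features. The AP-1 family partner Batf, known from immune cells, was 21.2-fold higher at T1 (log2 change 4.41, SE 0.19), and Fosl1 was 5.62-fold higher. Atf5 and Ddit3, factors of the stress response, were 1.84-fold and 1.46-fold lower.

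Of the listed growth genes Gap43, Basp1, Stmn2 and Nrn1, none had a mean above that of T0 at any time. Gap43, the growth-associated protein of axon terminals, was 14.77, 14.76, 14.80 and 14.74 in T0 and 14.59, 14.41, 14.84 and 14.07 in T1. In T2 it was 14.42, 14.56, 14.81 and 14.02, with 1 sample of T1 and of T2 above the T0 range. It read 14.14, 14.10, 14.48 and 14.41 in T4 and 14.09, 14.16, 14.41 and 14.25 in T8, both wholly below T0. The changes of -0.29 at T1 and -0.32 at T2 did not pass (adjusted p = 0.232 and 0.203), and those of -0.48 at T4 (1.40-fold lower, SE 0.19, adjusted p = 0.0478) and -0.54 at T8 (1.45-fold lower, adjusted p = 0.0262) did. The T4 change did not pass within scan session 1 (-0.38, from a single T4 sample) or session 2 (-0.51), nor in 16 of the 28 fits that each left out a sample, and the T8 change did not pass within session 2 (-0.50) or in 3 of those 28 fits. A further probe, M88356, annotated as part of the GAP-43 gene, was not well above background on any array and gives no level.

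Basp1, a growth cone protein of the same kind as Gap43, did not pass at any time. It was 11.57, 11.38, 11.45 and 11.42 in T0 and 11.29, 11.08, 11.05 and 10.81 in T1, which did not overlap. In T2 it was 10.72, 11.39, 11.34 and 10.79, in T4 11.17, 10.97, 11.28 and 11.39, and in T8 10.95, 11.40, 11.10 and 11.28, each with a sample inside the T0 range. The changes ran from -0.40 at T1 (95% interval -0.80 to 0.01, adjusted p = 0.108) to -0.25 at T4. With scan session as a block they passed at T1 (-0.32, adjusted p = 0.0157), T2 (-0.39, adjusted p = 0.00370) and T8 (-0.27, adjusted p = 0.0332).

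Stmn2, a tubulin-binding protein of neurons that is needed for axon regrowth, fell. Its values were 14.59, 14.45, 14.43 and 14.59 in T0, 13.57, 13.02, 13.56 and 12.62 in T1, and 12.43, 13.49, 13.49 and 12.45 in T2. In T4 it was 12.34, 12.78, 13.20 and 13.37, and in T8 12.87, 12.44, 12.98 and 12.72. All 16 of these injured samples were below T0. The fall was 2.50-fold at T1 (log2 change -1.32, SE 0.33, adjusted p = 0.00228), 2.92-fold at T2, 3.01-fold at T4 and 3.39-fold at T8 (adjusted p = 0.000150). In the 12 undisputed samples the changes of -0.94 at T1, -1.02 at T2 and -1.14 at T4 did not pass. Within scan session 1, which holds the same T0 and injured arrays, these same changes passed. Both fits hold a single sample of T1 and of T4, so neither outcome settles the call. Within T2, the replicates 2 and 3, which shared scan session 1, read higher than replicates 1 and 4 of session 2, and their neuronal marker sums were 17.17 and 17.00 against 16.35 and 16.37.

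Nrn1 had the lowest values relative to T0. It was 12.63, 11.87, 12.43 and 11.64 in T0, 9.54, 8.94, 9.98 and 8.45 in T1, and 9.03, 10.07, 10.01 and 7.98 in T2. It read 8.28, 8.37, 9.41 and 9.05 in T4 and 9.12, 9.31, 8.87 and 9.10 in T8. The highest injured value was more than 1.5 log2 units below the lowest T0 value. The levels were 7.53-fold lower at T1, 7.30-fold at T2, 10.3-fold at T4 and 8.23-fold at T8, given as a description. Over the 28 samples Nrn1 most resembled Fbxl15, B3galt2 and Hnmt (Pearson r 0.98 to 0.97), and Stmn2 resembled Reep1 and Stmn3, the latter a neuronal stathmin of the same family (0.98 each).

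Other growth cone and cytoskeletal genes were mostly lower. Of 19 measured, 4 were higher and 12 lower in T1, 2 and 12 in T2, 3 and 11 in T4, and 3 and 10 in T8, with a median log2 change of -0.78 at T1. Stmn3 was 3.48-fold lower at T1, and Ina, the neuronal intermediate filament internexin, was 3.85-fold lower. Dpysl3 and Dpysl4, both collapsin response mediator proteins, were 1.90-fold and 2.00-fold higher.

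Sprr1a could be read only through a probe outside the list. The probe is named Sprr1al on the array, a name that the current RefSeq table gives as a synonym of Sprr1a, and it was chosen after the annotation had been read. It was well above background on all 28 arrays and read 5.31, 5.47, 5.57 and 5.48 in T0. In T1 it was 8.90, 8.01, 8.21 and 7.91, in T2 7.48, 7.60, 8.30 and 7.23, in T4 5.93, 6.01, 6.57 and 6.90, and in T8 5.97, 5.69, 6.81 and 5.72. It was higher by 2.80 at T1 (SE 0.35, adjusted p = 6.45e-07), by 2.19 at T2 and by 0.89 at T4 (adjusted p = 0.0453), and the change of 0.59 at T8 did not pass (adjusted p = 0.196). Unlike Atf3, its means fell at each step from T1 to T8, but no single step passed (largest step -1.30 from T2 to T4, adjusted p = 0.163), and the difference from Atf3 was not tested. Of 4 relatives in the small proline-rich family 2 were measured, and Sprr1b and Sprr3 did not pass at T1 (0.67 and -0.50).

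Effector genes that accompany regrowth also went both ways. Of 25 measured, 14 were higher and 7 lower in T1, 10 and 6 in T2, 10 and 7 in T4, and 12 and 7 in T8, with median log2 changes of 0.91, 0.36, 0.14 and 0.38. Anxa2, a membrane-binding annexin, was 8.03-fold higher at T1, and Gch1, the first enzyme of tetrahydrobiopterin synthesis, was 3.50-fold higher. The neuropeptide genes Gal and Nts were 2.71-fold and 2.66-fold lower.

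Few steps after the first week passed. From T1 to T2 none of the 9 passed (1.48% of all features did), with changes from -0.23 for Stmn2 to 0.23 for Rtn4r. None had an unadjusted p under 0.05 in that step, where 4932 of all 35469 features did. From T2 to T4 only Lingo1 did, beside 3198 of all features. From T4 to T8 Rtn4r alone passed. The ranges did not overlap for 5.36% of all features between T2 and T4 and for 3.91% between T4 and T8. The intervals of steps that did not pass were wide: for Atf3 the T1 to T2 interval ran from -0.43 to 0.53, and for Nrn1 from -0.76 to 0.85.

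Ordered by mean level, the 7 groups overlapped their neighbours for Gap43 and for Basp1 throughout. Breaks in such an order are no trait of the members alone, since T0 and T1 did not overlap for 41.1% of all features. For Nrn1, Stmn2 and Rtn4 the break in the order lay below T0, with every other pair of neighbours overlapping. For Jun it lay above T0. Atf3 had a break above T0 and another between T4 and T8. Rtn4r had T8 and T0 at the top and a break to T4, and Lingo1 ran without a break from T0 to T2 and had T1_NPC alone at the bottom.

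The 9 members were also compared between grafted and time-matched injured cord. In T1_NPC against T1 none of the 9 members passed (limma, 11.9% of all features did). Lingo1 alone had an unadjusted p under 0.05, beside 9518 of all 35469 features. In T2_NPC against T2 Rtn4 passed after adjustment (9.47% of all features did). Rtn4 and Nrn1 had an unadjusted p under 0.05, beside 8604 of all features. With only 9 members, these counts do not set them apart from all features. The ranges of grafted and injured cord did not overlap for 16.3% of all features at T1_NPC and for 19.4% at T2_NPC. The median change of the members was -0.09 and -0.04, beside -0.01 and -0.03 over all features.

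**Figure D4:**
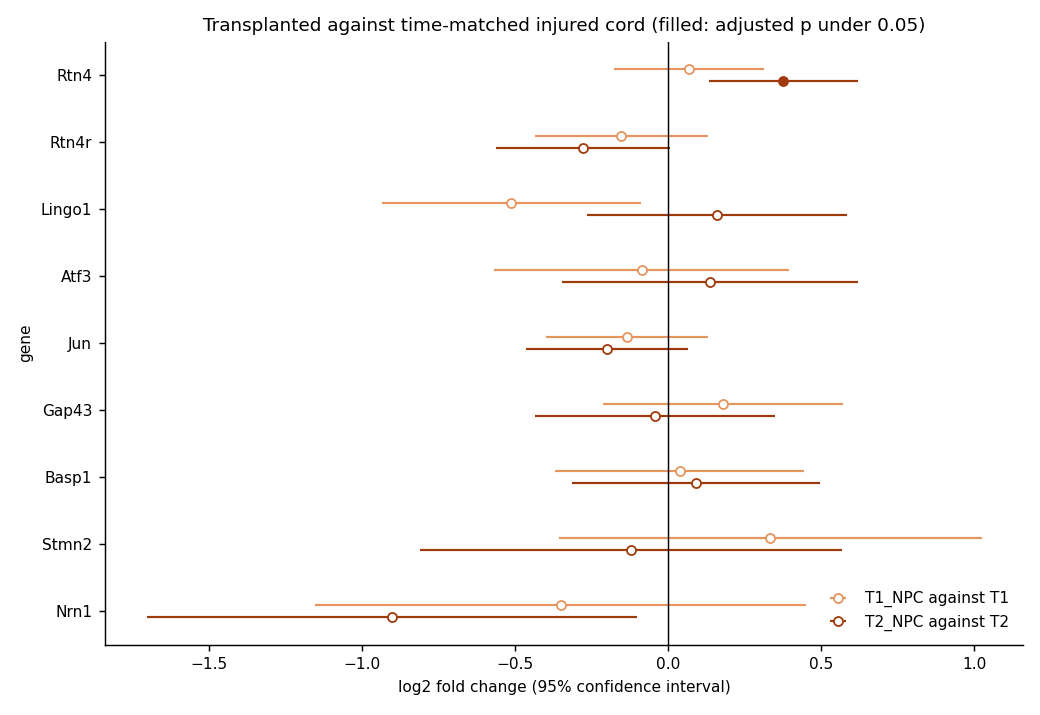
Log2 fold change of each found member in grafted against time-matched injured cord, after acute (light) and subacute (dark) transplantation, with 95% confidence intervals from the limma fit; filled points have an adjusted p under 0.05. Rtn4 after subacute grafting, at 0.38, is the filled point, and the intervals of Lingo1 at T1_NPC and Nrn1 at T2_NPC lie below 0 without passing after adjustment.

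Rtn4 was 13.46, 13.49, 13.32 and 13.27 in T2_NPC, above all T2 samples and below all T0 samples. The rise over T2 was 1.30-fold (log2 change 0.38, SE 0.12, 95% interval 0.13 to 0.62, adjusted p = 0.0459). It did not pass with arrays scaled to the 75th percentile (0.24, adjusted p = 0.193), with normexp background correction (0.22, adjusted p = 0.181), with slide as a random block (0.37, adjusted p = 0.112) or with the compared groups alone (adjusted p = 0.0584), nor in 19 of the 28 fits that each left out a sample, among them every fit without a sample of T2 or T2_NPC (0.33 to 0.41, adjusted p up to 0.132 without T2 replicate 3). In the 12 undisputed samples, which hold 2 of T2, the Rtn4 change was 0.40 and did not pass either. Oligodendrocyte markers moved the same way as Rtn4, with a summed level of 18.39 to 18.52 in T2_NPC against 17.83 to 18.18 in T2. Of these markers 2 of 7 passed, Mbp higher by 1.43 and Mobp by 0.70, and their part in the Rtn4 value was not tested. In T1_NPC, Rtn4 was 13.10, 13.07, 13.11 and 12.83, overlapping T1, and the 2 graft effects did not differ by the test (0.31, 95% interval -0.04 to 0.66, adjusted p = 0.510, 0.299% of features called).

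Lingo1 was 7.51, 7.62, 7.47 and 7.03 in T1_NPC, all below the T1 samples. The change was -0.51 (SE 0.21, 95% interval -0.94 to -0.09) and did not pass over all features (adjusted p = 0.105). In T2_NPC it spread from 7.45 to 8.67, the widest spread of this gene in any group, with a change of 0.16 (adjusted p = 0.697). Nrn1 in T2_NPC read 7.95, 8.02, 9.06 and 8.45, a log2 change of -0.90 that did not pass (adjusted p = 0.150), with overlapping values. With the samples whose own scanner output matches their column, which leaves 2 of T2, that change was -1.67 and passed (adjusted p = 0.00851). The T2 samples kept had the highest Nrn1 values of that group, 10.07 and 10.01. Those dropped read 9.03 and 7.98. Rtn4r read 7.29, 7.75, 7.60 and 7.57 in T1_NPC and 7.79, 7.78, 7.84 and 7.23 in T2_NPC, which did not pass (-0.15 and -0.28).

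The growth genes and transcription factors of the list did not pass after either graft. The changes in T1_NPC were 0.18 for Gap43, 0.04 for Basp1, 0.33 for Stmn2, -0.09 for Atf3 and -0.13 for Jun, and in T2_NPC -0.04, 0.09, -0.12, 0.14 and -0.20. The intervals were wide for Stmn2, -0.36 to 1.02 and -0.81 to 0.57, which leaves room for sizeable changes either way. Sprr1al read 7.91, 9.96, 8.98 and 8.11 in T1_NPC and 7.26, 7.22, 7.73 and 7.35 in T2_NPC (0.49 and -0.26, adjusted p = 0.392 and 0.700).

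Replicate 2 of T1_NPC stood apart from its group in several members at once. It had the group's highest Gap43 (14.98), Basp1 (11.77), Stmn2 (14.42), Nrn1 (9.15) and Sprr1al (9.96) and its lowest Atf3 (12.43) and Jun (14.03). Its neuronal marker sum of 17.55 was the highest of the 24 injured samples, and its macrophage and fibroblast sums of 17.36 and 14.72 were the lowest of them. Without it the T1_NPC changes were 0.07 for Gap43, 0.04 for Stmn2, -0.19 for Basp1 and 0.23 for Atf3, and still none of the 9 members passed.

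Of the genes around the members, some passed after grafting, beside 11.9% of all features in T1_NPC and 9.47% in T2_NPC. Of the 25 transcription factors, 5 were higher in T1_NPC and 6 in T2_NPC, and none was lower. The AP-1 partners of Jun, Fos and Junb, were higher at both, Fos 2.10-fold in each (adjusted p = 0.000723 and 0.000869) and Junb 2.89-fold and 1.98-fold. In the growth-inhibitor pathway 2 of 19 genes were higher and 2 lower in T1_NPC, and 2 were higher and 1 lower in T2_NPC. Rtn4rl2, a homologue of the Nogo receptor, was 2.56-fold higher in T1_NPC and 2.76-fold in T2_NPC (adjusted p = 0.00155 and 0.000974), and Rhoa, the small GTPase through which the receptor acts, was lower by -0.37 and -0.57. Of the 19 growth cone genes none passed in T1_NPC and 4 were higher in T2_NPC, among them Stmn4 by 1.65-fold and Ncam1, an adhesion molecule of neurons and glia, by 1.54-fold. Of the 25 effector genes 1 was higher in T1_NPC, Socs3, and 1 lower in T2_NPC, Lif.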

How the data were processed

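Total RNA was labelled with Cy3 and hybridised to 4 × 44K Agilent rat arrays, 1 array per sample. The authors extracted intensity values with Agilent Feature Extraction (version 10.7.1.1 in the file headers), corrected background by the Agilent method, quantile-normalised the arrays and deposited log2 values; the files hold no batch correction that is stated. Here the deposited log2 table was used as it stands. Control spots were left out, and copies of a probe and probes of one gene name were averaged (35469 features). Each comparison was a contrast in limma 3.58.1 (R 4.3.3) over 28 samples with 1 mean per group, with Benjamini-Hochberg adjustment over all features and a threshold of 0.05. In simulated data with 200 changed features, 56% of 2-fold and 90% of 4-fold changes were recovered for T1 against T0. The real comparison called 44.1% of features, so the adjustment was stricter in the simulation. These shares therefore do not give the recovery of the real test. The deposited intensity values (processed, median and background signal) of the scanner outputs served the alternatives and the well-above-background flag. Only 8 of these outputs carry gene names. Normexp used the median signal, since most outputs lack the mean. On 28 arrays 74.5% to 82.7% of spots were well above background. Precision is limited by how many arrays there are.

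The members, the pathway lists and the marker lists were chosen with earlier results of these data known. Named are all members, for each the 3 features with the highest Pearson correlation, and from each pathway list the 2 largest rises and falls at T1 among genes that passed and were above background; further genes were named after their values were seen. Some genes that this rule names are not reported here. Replicate numbers do not pair samples: the within-group deviations of same-numbered samples correlated at a median of 0.00. The labels call the samples of a group replicates, and the methods call them animals. Alternatives were the matched and the deposited scanner outputs, the 12 undisputed samples, 75th-percentile scaling, normexp (offset 50), a filter on dim probes, the brightest probe, blocks by replicate, slide and session, other sample sets, trended moderation, a 2-fold threshold, and each sample left out; values within each scan session were added after seeing the data.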

Additional observations from a re-analysis of the deposited data

Results flagged for a closer look

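Among the 63 sets of 4 values (9 members in 7 groups), 3 held a sample far from the others by Dixon's ratio of gap to range, where chance alone flags about 1 set in 20. Rtn4 in T8 replicate 4 was 12.69 against 13.13 for the next sample (ratio 0.879). Rtn4 in T1_NPC replicate 4 was 12.83 against 13.07 (ratio 0.870). Rtn4r in T2_NPC replicate 4 was 7.23 against 7.78 (ratio 0.894). Without T8 replicate 4, Rtn4 still passed in T8 against T0. The flagged graft samples enter comparisons against T0 only through the shared estimate of spread. Without T2_NPC replicate 4, Rtn4 no longer passed in T2_NPC against T2 (limma, adjusted p = 0.0541). Without T8 replicate 4, Rtn4r no longer passed in T8 against T4 (limma, adjusted p = 0.136).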

How the results depend on the processing

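Counts of members against T0 take in Nrn1 here, a gene chosen on that change, so its calls lend these counts no support. Without Nrn1 the fit reported above called 6, 6, 6 and 5 of 8 members in order of time. Signs of values that passed in neither fit were not compared, and no value that passed turned its direction. With the scanner outputs under their deposited labels, 0 members passed in each comparison, including each time against T0, T8 against T4 and T2_NPC against T2. Of all 35469 features at most 43 passed in any comparison, and 0 for T1 against T0, where 2426 had an unadjusted p under 0.05; the cause was not tested. With a further 2-fold threshold the counts against T0 were 3 in T1, T4 and T8 and 4 in T2. At T4 against T0 the count was 4 with the 12 undisputed samples and 4 within scan session 1, which are the same arrays for T0 and T4 with a single T4 sample. For T8 against T4 it was 0 with the 12 undisputed samples, within either session, with the compared groups alone and at 2-fold. For T2_NPC against T2 it was 0 with 75th-percentile scaling, normexp, slide as a random block, the compared groups alone and 2-fold, and the cause was not tested. With the 12 undisputed samples Nrn1 passed in T2_NPC against T2 and Rtn4 did not. With each sample left out in turn, the counts ran from 7 to 8 in T1, 7 to 7 in T2, 6 to 7 in T4 and 5 to 7 in T8 against T0, from 0 to 1 for T8 against T4 and from 0 to 1 for T2_NPC against T2. Scaling to the 75th percentile shifted the median of all features to -0.27 at T1 and -0.16 at T4 against T0 and to 0.11 in T1_NPC against T1, with 7 members called at T1 and 7 at T4. A fit with the replicate number as a block gave 7, 7, 7 and 6 members against T0 in order of time, 1 for T8 against T4 and 1 for T2_NPC against T2, and this replicate block changed no count. Groups of 4 samples, 1 probe a gene and slides shared by whole graft groups limit these values.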
